A study of Mus musculus with 12 samples.

Results

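Messenger RNA of DEN-treated wild-type mouse liver was compared with that of untreated wild-type liver. Diethylnitrosamine (DEN) is a liver carcinogen that hepatocytes convert into a DNA-alkylating species. The comparison used 6 of the 12 libraries of the study: 3 from wild-type (WT) mice that had received DEN (WT_DEN) and 3 from untreated wild-type mice (WT_Ctrl). All were livers of male C57BL6 mice. DEN was injected at 50 µg per g body weight at 3 weeks of age, and livers were taken 30 to 38 weeks later, which a second label field gives as an age of 33 to 41 weeks. The other 6 libraries came from mice with the S302A knock-in of CUGBP1, an RNA-binding protein encoded by Celf1, with and without DEN, and are used below only where the genotypes are set side by side. Of 31253 gene symbols, 11464 (36.7%) stood above 1 TPM in at least 3 of the 6 wild-type libraries and were tested. The labels describe no vehicle injection in the untreated mice. They do not say at what hour livers were taken, whether a piece of liver held a tumour, or whether each library came from its own animal. The p-values therefore speak of the spread among these libraries, some of which may be technical.

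Liver is the main site of fatty acid and triglyceride synthesis, of glucose storage and release, and of bile acid synthesis. Many of its genes follow the daily cycle of feeding, and in males the pulses of growth hormone from the pituitary hold one set of hepatocyte genes high and another low. Alkylated DNA activates the transcription factor p53, which induces genes that stop the cell cycle. In a piece of whole liver, fewer cells of a type and less RNA per cell cannot be told apart.

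The values were TPM, transcript abundance relative to the library's total, which divides out the sequencing depth, so the depth behind each value is unknown. No value lay below 1, and a value of 1 is read as 1 or less. Differences are given on the log2(TPM + 1) scale, which understates the change of low genes, and tests were limma on the 6 libraries with p-values adjusted by Benjamini-Hochberg over all 11464 genes. WT_Ctrl replicate 1 stood somewhat apart from the other untreated livers. Its summed TPM of 24 fatty acid and triglyceride synthesis genes was 4773, against 1519 and 1744, and 716 genes passed without it, against 147 with it. The major urinary proteins, carrier proteins that male liver makes in bulk (19 Mup genes), held 8.39%, 22.1% and 16.8% of all TPM in WT_Ctrl replicates 1 to 3 and 3.44%, 8.81% and 5.40% in WT_DEN. TPM adds up to a fixed total, so such a share moves all other values. Over all genes the median log2 change was 0.14, and -0.01 after median-of-ratios scaling, which sets the typical gene equal between libraries, and list medians are given on both scales.

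No cell type marker that was tested passed, although some summed levels stood apart between the groups. The summed level of 11 hepatocyte markers ranged from 46588 to 68417 TPM in WT_Ctrl and from 76656 to 91758 in WT_DEN. Albumin (Alb) made up most of that sum, at 38664, 21177 and 26150 TPM in WT_Ctrl and 51258, 46307 and 56369 TPM in WT_DEN. Of the 11 markers 5 had every DEN liver above every untreated one (22.9% of all genes tested), and the others overlapped. Apob, Cps1, Serpina1c and Tat had log2 changes of 0.04, -0.02, -0.12 and 0.10. Summed macrophage markers (12 tested) ranged from 127 to 294 TPM and from 135 to 262, stellate cell and fibroblast markers (12) from 58.8 to 81.9 and from 69.9 to 99.6, and sinusoidal endothelial markers (12) from 84.0 to 103 and from 108 to 146. The hepatocyte and endothelial sums did not overlap between the groups, while the macrophage and stellate sums did. Within the macrophage list 9 markers had a higher mean and 3 a lower mean. Marco, 1 of these 3, went from 2.99, 2.39 and 9.20 TPM in WT_Ctrl to 1 in all WT_DEN libraries. Of 4 tested erythroid markers 3 had a lower mean. Alas2 was higher in every DEN liver (18.4, 58.3 and 44.2 TPM in WT_Ctrl and 114, 91.3 and 85.9 TPM in WT_DEN). The part of these cell types in the results below was not tested. The bile duct markers Krt7, Krt19 and Epcam, the collagen gene Col1a1, the T cell gene Cd3e and the B cell gene Ms4a1 were at 1 in all 6 libraries.

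At an adjusted p of 0.05 limma called 147 of 11464 genes (1.28%), 121 higher after DEN (1.06%) and 26 lower (0.227%). The median change of the called genes was 1.15 for rises and -1.40 for falls, and 77 rises and 21 falls were at least 2-fold on the log2(TPM + 1) scale. All 147 had groups that did not overlap, as did 26.3% of all genes tested. The balance of rises and falls depended on scaling. With median-of-ratios scaling 103 genes passed, 52 higher and 51 lower, with quantile normalization 40 higher and 47 lower, and without the 20 most abundant genes 52 higher and 27 lower. Fewer calls held with 1 library left out. Of the 147, 139, 80 and 61 held without WT_Ctrl replicates 1, 2 and 3, and 69, 19 and 28 without WT_DEN replicates 1, 2 and 3. Each of these fits also has 1 library fewer, and the part of that in the lost calls was not tested. A gene that fell below the filter was not tested again and was counted as not held. This was so for the 7 falls at 1 in all DEN livers whenever a WT_Ctrl replicate was left out. It was so for the 4 rises at 1 in all untreated livers whenever a WT_DEN replicate was left out. Neither kind could be among the calls that held throughout. Calls that held under each of the 6 left-out libraries numbered 13: Apoa4, Cdkn1a, Akr1c19, Hsd3b5, Marcksl1-ps4, G0s2, Mug2, Slc16a5, Nfil3, Hsd17b6, 1810011O10Rik, Egr1 and Epha2. In 1 model with all 12 libraries, whose shared spread includes the knock-in samples, 16 of the calls held. No named call changed direction under any of the 17 alternatives that tested it.

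**Figure D1:**
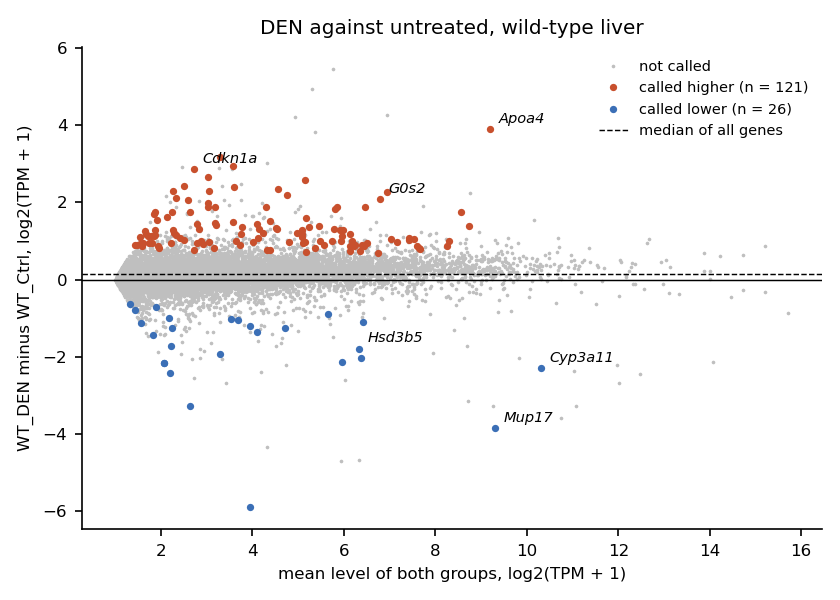
The change after DEN (WT_DEN minus WT_Ctrl, vertical axis) is plotted against the mean level of both groups (horizontal axis), both in log2(TPM + 1), for 11464 genes. Coloured points are the 121 genes called higher and the 26 called lower, and the dashed line is the median of all genes at 0.14, above 0.

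The largest called rise was that of a lipoprotein gene. Apoa4 (chromosome 9, 46240696 to 46243459, plus strand, mm10) encodes apolipoprotein A-IV, a component of triglyceride-rich particles. It stood at 163, 191 and 112 TPM in WT_Ctrl and 2512, 2419 and 1901 TPM in WT_DEN (replicates 1 to 3, in this order throughout). The lowest DEN liver was about 10 times the highest untreated one, and the call held under all 17 alternatives, with adjusted p from 2.68e-05 to 0.0106 (log2 change 3.89 ± 0.22 SE, limma adjusted p = 0.000591). Of 23 tested lipoprotein and receptor genes Apoa4 was the 1 that passed. Of the other members 21 had a higher mean and 1 a lower mean, and the list's median change was 0.51 (0.33 after median-of-ratios scaling). Apoc3, an inhibitor of triglyceride clearance, was at 5695, 3911 and 4178 TPM in WT_Ctrl and 9191, 9744 and 9132 TPM in WT_DEN, and its groups did not overlap, but it missed the threshold (adjusted p = 0.0562). Apoc2, the activator of lipoprotein lipase, missed it too (414, 211 and 386 TPM without DEN and 829.8, 736 and 715 TPM after it, adjusted p = 0.0567).

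Of 16 tested lipid droplet and lipase genes 4 passed upward and 0 downward, with a list median of 0.36 (0.20 scaled). G0s2 (chromosome 1, 193272161 to 193273217, minus strand) encodes an inhibitor of adipose triglyceride lipase. It was at 69.5, 44.6 and 47.0 TPM in WT_Ctrl and 207, 267 and 205 TPM in WT_DEN (log2 change 2.07 ± 0.20, adjusted p = 0.00642), so that every DEN liver held about 3 times the highest untreated level or more. Plin5, a droplet coat protein that ties droplets to mitochondria, rose from 14.5, 18.6 and 9.41 to 36.1, 30.9 and 40.2 TPM (adjusted p = 0.0403). Hilpda, another inhibitor of that lipase, rose from 1.13, 1.53 and 1.39 to 4.72, 3.56 and 4.17 TPM (adjusted p = 0.0182). Mgll, the lipase that cleaves monoacylglycerol, rose from 37.4, 39.3 and 33.2 to 68.8, 75.1 and 80.8 TPM (adjusted p = 0.0154). Thus 2 inhibitors of lipolysis and 1 lipase moved in the same direction, with no overlap between groups in any of them. The calls of Mgll and Plin5 ended under median-of-ratios scaling (adjusted p = 0.0589 and 0.0766). Without WT_DEN replicate 3 the Mgll, Hilpda and Plin5 calls all ended, at up to 0.114, and without WT_DEN replicate 2 those of Mgll and Plin5. The Plin5 call also ended without WT_Ctrl replicate 3 or WT_DEN replicate 1, at up to 0.114.

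Fatty acid and triglyceride synthesis had 3 rises and 0 falls among 24 tested genes of 25 listed, and its median change of 0.84 (0.66 scaled) was the highest of the lists with at least 5 tested genes. Of the 24, 23 had a higher mean (71.8% of all genes did) and 10 had every DEN liver above every untreated one (22.9% of all genes). The called genes encode 2 enzymes of triglyceride assembly and a desaturase. Agpat2, which acylates lysophosphatidic acid, was at 142, 125 and 97.1 TPM in WT_Ctrl and 263, 225 and 246 TPM in WT_DEN (log2 change 1.02 ± 0.16, adjusted p = 0.0315). Dgat2, which completes triglyceride, was at 152, 119 and 156 TPM in WT_Ctrl and 234, 256 and 295 TPM in WT_DEN (0.87 ± 0.16, adjusted p = 0.0432). Fads2, the delta-6 desaturase, was at 124, 86.9 and 94.9 TPM in WT_Ctrl and 195, 187 and 214 TPM in WT_DEN (0.97 ± 0.16, adjusted p = 0.0315). All DEN livers were above all untreated livers for these genes, by less than 3-fold. Fasn and Scd1 spread more widely. Fasn, fatty acid synthase, was at 69.2, 22.5 and 15.2 TPM in WT_Ctrl and 157, 67.1 and 74.1 TPM in WT_DEN (adjusted p = 0.14), and Scd1, the stearoyl-CoA desaturase, at 2341, 296 and 443 TPM in WT_Ctrl and 3436, 1325 and 1648 TPM in WT_DEN (adjusted p = 0.265). For both genes WT_Ctrl replicate 1 lay among the DEN livers, and WT_DEN replicate 1 was the highest of all 6. Thrsp, a lipogenic coactivator-like protein, did not overlap (436, 94.7 and 185 TPM without DEN and 816, 842 and 1213 TPM after it) but missed the threshold (log2 change 2.25, adjusted p = 0.0629). The 3 calls each ended without WT_Ctrl replicate 3 and without each WT_DEN replicate, at adjusted p up to 0.152, those of Fads2 and Dgat2 also without WT_Ctrl replicate 2, and that of Dgat2 under median-of-ratios scaling (0.104). Gm6484, named Angptl8 in RefSeq (chromosome 9, 21835510 to 21837347, plus strand), encodes a secreted, insulin- and feeding-induced inhibitor of lipoprotein lipase. It was at 85.9, 30.1 and 62.5 TPM in WT_Ctrl and 275, 269 and 261 TPM in WT_DEN (log2 change 2.28 ± 0.32, adjusted p = 0.0192), and the DEN livers lay within a narrow band above the untreated range. Its call ended without WT_DEN replicate 1 or 2, at up to 0.0635.

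**Figure D2:**
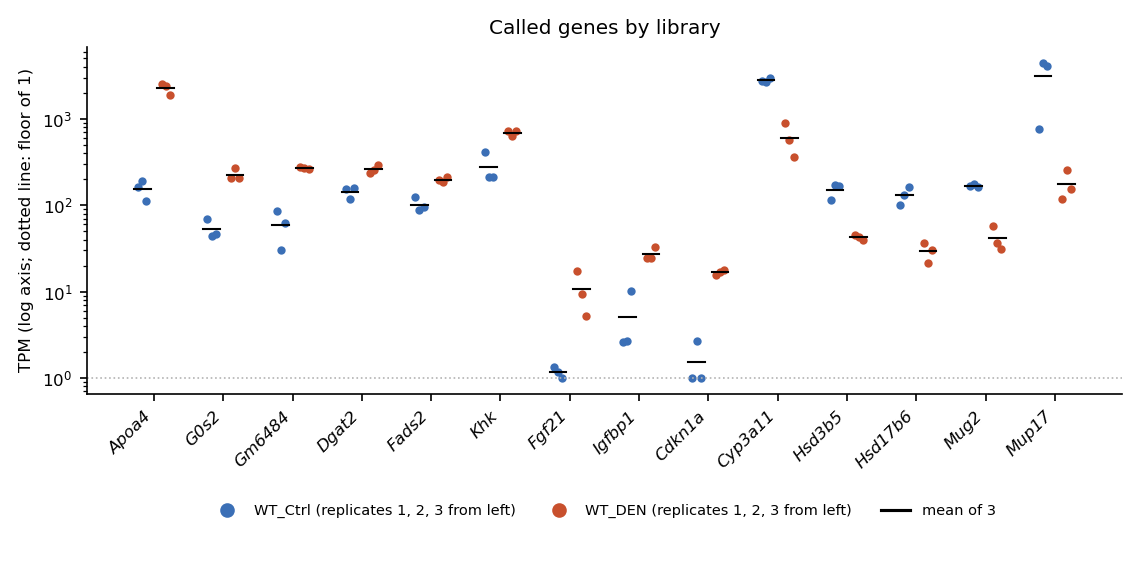
TPM of 14 called genes is shown on a log axis, with 1 point per library (WT_Ctrl and WT_DEN, n = 3 each, replicates 1 to 3 from left) and a bar at the mean. The groups do not overlap for any gene shown, and WT_Ctrl replicate 1 is the lowest untreated liver for Mup17 and the highest for Khk.

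Of 26 tested genes of glucose metabolism 5 passed upward and 0 downward, 15 had every DEN liver above every untreated one (22.9% of all genes tested), and the median change was 0.54 (0.36 scaled). Khk (chromosome 5, 30921431 to 30931248, plus strand), the kinase that commits fructose to breakdown, was at 408, 212 and 211 TPM in WT_Ctrl and 719, 638 and 714 TPM in WT_DEN (log2 change 1.38 ± 0.25, adjusted p = 0.0432). Pfkfb1, the liver enzyme that makes and breaks down fructose 2,6-bisphosphate, rose from 17.2, 13.1 and 10.8 to 27.8, 38.8 and 40.3 TPM (adjusted p = 0.0284). Both genes had all DEN livers above all untreated ones. Eno1, a glycolytic enolase, rose from 271, 204 and 205 to 407, 434 and 394 TPM (adjusted p = 0.0393), and Slc37a4, the transporter of glucose 6-phosphate into the endoplasmic reticulum, from 75.3, 52.2 and 66.5 to 107, 122 and 122 TPM (adjusted p = 0.0447). The gluconeogenic genes Pck1 and G6pc did not pass: Pck1 was at 725, 661 and 1019 TPM in WT_Ctrl and 283, 1096 and 977 TPM in WT_DEN and G6pc at 211, 119 and 109 TPM in WT_Ctrl and 187, 125 and 133 TPM in WT_DEN (adjusted p = 0.82 and 0.915), with overlapping groups. Pfkfb3, another isoform of the fructose 2,6-bisphosphate enzyme, was lower in every DEN liver but missed the threshold (6.36, 3.20 and 7.71 TPM without DEN and 1.16, 1.18 and 2.04 TPM after it, adjusted p = 0.0552). The calls of Khk, Pfkfb1, Eno1 and Slc37a4 ended without WT_DEN replicate 2 and without WT_DEN replicate 3, at adjusted p up to 0.152. They also ended without WT_Ctrl replicate 2 or 3, those of Eno1, Khk and Slc37a4 without WT_DEN replicate 1, and those of Pfkfb1 (0.0635), Eno1 (0.0511) and Slc37a4 (0.0837) under median-of-ratios scaling.

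Genes of fatty acid oxidation and PPAR-alpha, the nuclear receptor that induces it, had 5 rises and 0 falls among 34 tested, with a median of 0.38 (0.20 scaled), and 33 had a higher mean. Acot3 and Acot4, peroxisomal acyl-CoA thioesterases, rose. Acot3 was at 2.36, 1 and 1.15 TPM in WT_Ctrl and 5.42, 18.1 and 17.6 TPM in WT_DEN (log2 change 2.44 ± 0.41, adjusted p = 0.0374), with WT_DEN replicate 1 well below the other DEN livers. Acot4 was at 5.94, 3.15 and 5.22 TPM in WT_Ctrl and 11.7, 15.5 and 15.7 TPM in WT_DEN (1.43 ± 0.22, adjusted p = 0.0284). The thioesterase genes lie close in sequence, so reads could be split between them. Pex11a, which drives peroxisome division, rose from 20.8, 27.1 and 24.0 to 41.1, 48.9 and 52.2 TPM (adjusted p = 0.0311), and Hadh, a mitochondrial beta-oxidation dehydrogenase, from 179.7, 133 and 152 to 280.0, 257 and 261 TPM (adjusted p = 0.0447). The fifth call in the list was Fgf21. Acnat2, a peroxisomal acyltransferase of the same wider family, was outside the list and rose from 19.7, 22.3 and 5.57 to 88.7, 81.1 and 88.5 TPM (log2 change 2.57 ± 0.42, adjusted p = 0.0315). The Acot3, Acot4, Pex11a and Acnat2 calls were lost under median-of-ratios scaling (adjusted p = 0.0741, 0.0602, 0.122 and 0.0637), and all 5 of these enzyme and peroxisome calls without WT_DEN replicate 2 and without replicate 3. The Acot3 and Hadh calls also ended without WT_Ctrl replicate 2 or 3, the Pex11a call without WT_Ctrl replicate 3, and the Hadh and Acnat2 calls without WT_DEN replicate 1 (up to 0.147 over these calls).

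Fgf21 and Igfbp1, secreted liver proteins of the fasting response, rose from near the floor. Fgf21 (chromosome 7, 45613886 to 45615490, minus strand) was at 1.35, 1.16 and 1 TPM in WT_Ctrl and 17.4, 9.43 and 5.24 TPM in WT_DEN (log2 change 2.29 ± 0.34, adjusted p = 0.0234), and the DEN livers differed among themselves by about 3-fold. Igfbp1 (chromosome 11, 7197782 to 7202546, plus strand), an insulin-repressed binding protein of insulin-like growth factors, was at 2.63, 2.68 and 10.1 TPM in WT_Ctrl and 24.8, 24.6 and 32.6 TPM in WT_DEN (2.41 ± 0.40, adjusted p = 0.0342), with WT_Ctrl replicate 3 the highest untreated liver. With Apoa4 these were the 3 calls, all upward, among 16 tested genes induced by fasting or by CREBH, a liver transcription factor of fasting. The list's median was 0.26 (0.12 scaled, 0.42 without WT_DEN replicate 1). Creb3l3, which encodes CREBH, was at 110.0, 121 and 107 TPM in WT_Ctrl and 126, 145 and 136 TPM in WT_DEN and did not pass (adjusted p = 0.275). Cpt1a, the gate of mitochondrial fatty acid entry, was at 58.9, 51.0 and 63.7 TPM in WT_Ctrl and 67.0, 65.8 and 94.9 TPM in WT_DEN (adjusted p = 0.275). Angptl8, known as feeding-induced, and Fgf21 and Igfbp1, known as fasting-induced, were called higher in the same livers. The Fgf21 call ended without WT_DEN replicate 2 (0.0655). The Igfbp1 call ended without WT_Ctrl replicate 2 or any WT_DEN replicate, at up to 0.0858, and under median-of-ratios scaling (0.0821). Igfbp1 was the 1 call among 16 genes of the growth hormone and insulin-like growth factor axis, whose median was 0.17. It was 0.32 without WT_Ctrl replicate 1, where fewer than 16 members passed the filter. In the 3 left-out fits that kept all 16 members the median ranged from 0.12 to 0.16.

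Of 29 tested male-biased genes, which male liver expresses at high levels, 2 passed downward and 0 upward, 12 had every DEN liver below every untreated one (3.39% of all genes tested), and the median change was -0.63 (-0.81 scaled, -0.38 without WT_DEN replicate 1), the lowest of the lists with at least 5 tested genes. Hsd3b5 (chromosome 3, 98618634 to 98630252, minus strand), a steroid-metabolising enzyme, was at 116, 172 and 167 TPM in WT_Ctrl and 44.7, 43.2 and 39.9 TPM in WT_DEN (log2 change -1.79 ± 0.17, adjusted p = 0.00642), and its call held under each left-out library. Mup17 (chromosome 4, 61591929 to 61595871, minus strand), a major urinary protein gene, was at 772, 4455 and 4104 TPM in WT_Ctrl and 119, 255 and 153 TPM in WT_DEN (-3.85 ± 0.62, adjusted p = 0.0311). The highest DEN liver was about a 3-fold step below the lowest untreated one, WT_Ctrl replicate 1. The Mup17 call ended without WT_Ctrl replicate 2 or 3 or WT_DEN replicate 1, 2 or 3, at up to 0.076, and under median-of-ratios scaling (0.0688). The Mup genes are near-identical copies, so single values are uncertain. Other Mup genes did not pass. Mup7 did not overlap between groups, at 27699, 32857 and 50417 TPM in WT_Ctrl and 1507, 25858 and 14152 TPM in WT_DEN (adjusted p = 0.235), Mup20 overlapped, at 10618, 16321 and 15667 TPM in WT_Ctrl and 15069, 24609 and 11813 TPM in WT_DEN (0.734) and Mup21 was higher in every DEN liver, at 489.9, 561 and 318 TPM in WT_Ctrl and 646, 1231 and 913 TPM in WT_DEN (0.111). Of 31 listed female-biased genes, which male liver holds low, 15 were tested and 8 were at 1 in all 6 libraries. A gene at 1 in all untreated livers could be tested only where all DEN livers were above 1. That filter by itself favours rises among low genes. Of the 15 tested, 2 passed upward and 0 downward, and all 15 had a higher mean as deposited. Of them 3 had every DEN liver above every untreated one (22.9% of all genes tested). The list's median was 0.60 (0.45 scaled). Slc16a5, a monocarboxylate transporter family member, rose from 1.49, 1 and 1.11 to 4.60, 5.57 and 6.19 TPM (adjusted p = 0.00896), and Abcd2, a peroxisomal fatty acid transporter, from 1.40, 1 and 1 to 4.04, 3.26 and 4.11 TPM (adjusted p = 0.0149). The Abcd2 call ended without WT_DEN replicate 3 (0.0569). Cyp2a4, a female-biased steroid hydroxylase, was at 1.20, 1 and 83.6 TPM in WT_Ctrl and 142, 275 and 264 TPM in WT_DEN. The groups did not overlap and the change had the largest size in the list, but WT_Ctrl replicate 3 was far above the other untreated livers and the gene did not pass (log2 change 4.92 ± 1.25, adjusted p = 0.0972). Cyp2a genes also lie close in sequence.

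Cyp3a11 (chromosome 5, 145854426 to 145879964, minus strand), the main xenobiotic P450 of mouse liver, was at 2761, 2684 and 2991 TPM in WT_Ctrl and 886, 571 and 365 TPM in WT_DEN (log2 change -2.30 ± 0.29, adjusted p = 0.0138). The untreated livers agreed closely, and the DEN livers lay well below them, spread over more than 2-fold. It was the 1 call among 35 tested P450 and regulator genes, whose median was 0.31 (0.15 scaled), and the call ended without WT_DEN replicate 2 (0.053). Hsd17b6 (chromosome 10, 127990936 to 128007611, minus strand), a hydroxysteroid dehydrogenase that acts on androgens, was at 100.3, 131 and 162 TPM in WT_Ctrl and 36.8, 21.3 and 30.3 TPM in WT_DEN (-2.12 ± 0.23, adjusted p = 0.00979). Mug2 (chromosome 6, 122006761 to 122085965, plus strand), a murinoglobulin protease inhibitor of plasma, was at 167, 175 and 164 TPM in WT_Ctrl and 57.0, 36.6 and 31.2 TPM in WT_DEN (-2.04 ± 0.21, adjusted p = 0.00879). For both, every DEN liver lay more than 2-fold below every untreated liver, and both calls held under each left-out library. Ugt2b35, a glucuronosyltransferase, fell from 127, 112 and 134 to 75.1, 52.6 and 47.5 TPM (adjusted p = 0.0342). It was the 1 call of 35 conjugation enzymes and ended without WT_Ctrl replicate 3 or WT_DEN replicate 2 or 3, at up to 0.106. Clec2h, a C-type lectin, went from 8.10, 4.5 and 23.2 TPM to 1 in all DEN livers (adjusted p = 0.0459), which makes the fall a lower bound. This call ended without each WT_DEN replicate (up to 0.11) and under median-of-ratios scaling (0.0741), and the gene fell below the filter without any WT_Ctrl replicate. Fbxo21, a subunit of a ubiquitin ligase, fell from 22.6, 22.6 and 36.6 to 8.16, 13.1 and 8.74 TPM (adjusted p = 0.0403), and that call ended without WT_Ctrl replicate 2 or 3 or WT_DEN replicate 1, 2 or 3 and under median-of-ratios scaling (0.0714). Of the 26 falls 10 were transcripts listed without a gene symbol, and 7 falls reached 1 in all DEN livers. Among the other falls were 1810064F22Rik, an antisense gene whose reads may not be separable from those of its partner, from 12.1, 4.45 and 7.22 to 2.17, 1 and 1.66 TPM (adjusted p = 0.0447), and Gm10319, a pseudogene, from 36.1, 47.0 and 37.2 to 22.6, 14.7 and 12.3 TPM (0.04). The 1810064F22Rik call ended without WT_Ctrl replicate 3 or WT_DEN replicate 1, 2 or 3 (up to 0.121), and the Gm10319 call without WT_Ctrl replicate 2 or 3 or WT_DEN replicate 2 or 3 (up to 0.114).

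Clock genes moved in both directions. The circadian clock is a loop in which BMAL1 (Arntl) and CLOCK induce their own repressors, the Per and Cry genes, and the Nr1d genes, whose proteins repress Arntl and Nfil3. Of 21 tested clock genes 2 passed upward and 1 downward, and the median was 0.41 (0.26 scaled), or 0.18 without WT_Ctrl replicate 2 and 0.25 without WT_DEN replicate 3. Nfil3 (chromosome 13, 52967209 to 52981073, minus strand), a repressor of D-box genes, was at 10.5, 11.4 and 6.57 TPM in WT_Ctrl and 41.4, 33.0 and 36.7 TPM in WT_DEN (log2 change 1.88 ± 0.21, adjusted p = 0.00979), and its call held under all 17 alternatives. Cry1 (chromosome 10, 85131700 to 85185064, minus strand), a repressor of BMAL1 and CLOCK, was at 2.59, 2.46 and 1.13 TPM in WT_Ctrl and 6.94, 14.4 and 14.3 TPM in WT_DEN (2.05 ± 0.31, adjusted p = 0.0248). Nr1d2, the nuclear receptor REV-ERB beta, fell from 18.2, 13.9 and 20.8 to 8.18, 6.74 and 9.18 TPM (-1.04 ± 0.19, adjusted p = 0.0432). None of the 3 overlapped between groups. Its relative Nr1d1 was at 52.8, 25.3 and 50.2 TPM in WT_Ctrl and 21, 4.02 and 3.45 TPM in WT_DEN (adjusted p = 0.0836), and Arntl at 1.66, 5.65 and 1 TPM in WT_Ctrl and 12.4, 9.06 and 7.90 TPM in WT_DEN (adjusted p = 0.0836). Both kept their groups apart without passing, Nr1d1 lower and Arntl higher after DEN. Dbp, a D-box activator, was at 47.2, 5.41 and 62.7 TPM in WT_Ctrl and 2.23, 2.56 and 5.50 TPM in WT_DEN (adjusted p = 0.114), and here WT_Ctrl replicate 2 lay just below the highest DEN liver. Clock itself, Per1, Per3 and Tef overlapped between groups, with adjusted p of 0.989, 0.589, 0.885 and 0.676. Clock transcripts swing over the day, and the hour of collection is not in the labels, so a difference between groups in that hour cannot be told apart from one in treatment. The Cry1 call ended without WT_DEN replicate 2 or 3 (up to 0.0692) and under median-of-ratios scaling (0.0635), and the Nr1d2 call without WT_Ctrl replicate 3 or WT_DEN replicate 1, 2 or 3 (up to 0.129).

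**Figure D3:**
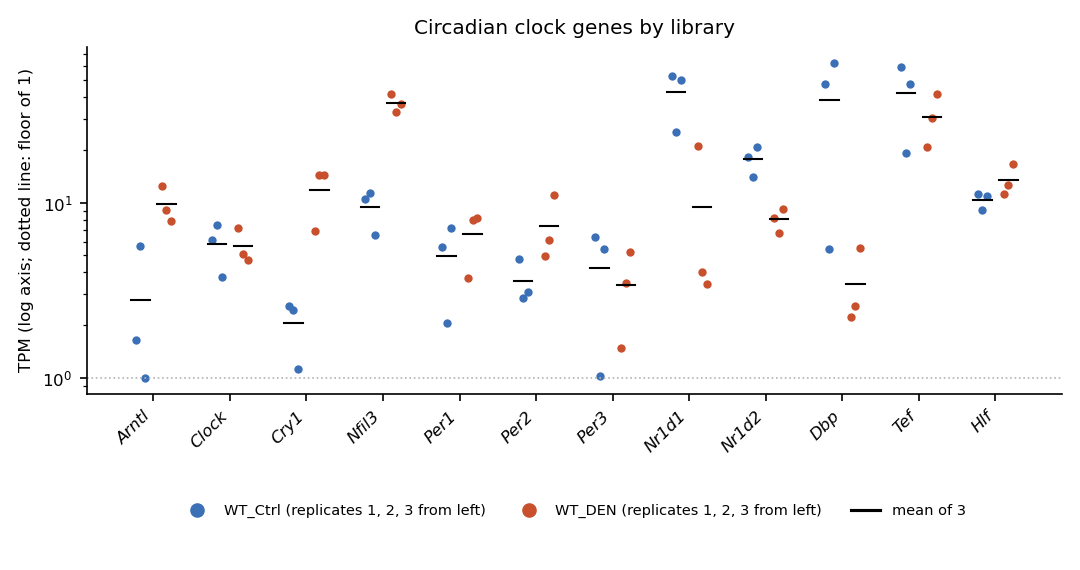
TPM of 12 clock genes is shown on a log axis, with 1 point per library (WT_Ctrl and WT_DEN, n = 3 each, replicates 1 to 3 from left) and a bar at the mean. Cry1 and Nfil3 sit higher and Nr1d2 lower in all 3 DEN livers, while Clock, Per1, Per3 and Tef overlap.

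The promoters of the called genes were searched for the motifs these factors bind, in RefSeq windows of 250 bases before to 50 after each start (GRCm38.p6, the mm10 sequence), on both strands. Of the 11464 genes tested, 8644 matched a window by symbol or older symbol, among them 91 of the 121 rises and 12 of the 26 falls. The E-box CACGTG, bound by BMAL1 and CLOCK and by other factors, was in the window of 9 of 91 rises (9.89%) and 2 of 12 falls (16.7%). Of the 8644 tested genes with a window 12.1% had it, so the share among rises was near that of the tested genes. Counted by window and not by gene, 7.15% of all 32851 windows held it. The E-box rises were Acot4, Cry1, Fgf21, Khk, Mgll, Nr0b2, Ppp1r3c, Rhobtb1 and Tspan4. The D-box TTATGTAA, bound by DBP and NFIL3, was in 3 of 91 rises (3.30%; Ces1g, Gde1 and Wnt5b) against 0.717% of tested genes and 0.938% of all windows. The cyclic AMP element TGACGTCA was in 2 of 91 rises (2.20%), 3.68% of tested genes and 1.79% of all windows, and the unfolded protein response element TGACGTGG in 0 of 91, 0.937% and 0.676%. These last 3 motifs were in 0 of the 12 falls. A window can hold more than 1 motif, and all but the D-box contain the letters ACGT. To show the motif in place, the 250 bases before the start are printed 5′ to 3′ for a clock gene, a hormone gene and a bile acid regulator among the rises, with the E-box in capitals.
Cry1 (chr10:85185055-85185304, minus strand): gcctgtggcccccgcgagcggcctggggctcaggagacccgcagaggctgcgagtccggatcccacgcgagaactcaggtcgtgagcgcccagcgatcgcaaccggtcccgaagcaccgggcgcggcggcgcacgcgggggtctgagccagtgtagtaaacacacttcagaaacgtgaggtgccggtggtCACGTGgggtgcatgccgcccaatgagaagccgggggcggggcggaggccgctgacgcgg
Fgf21 (chr7:45615491-45615740, minus strand): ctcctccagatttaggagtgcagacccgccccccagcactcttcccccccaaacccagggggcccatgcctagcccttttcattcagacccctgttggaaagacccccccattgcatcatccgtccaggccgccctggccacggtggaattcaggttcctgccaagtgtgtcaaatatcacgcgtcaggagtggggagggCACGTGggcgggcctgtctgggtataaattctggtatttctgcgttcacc
Nr0b2 (chr4:133553126-133553375, plus strand): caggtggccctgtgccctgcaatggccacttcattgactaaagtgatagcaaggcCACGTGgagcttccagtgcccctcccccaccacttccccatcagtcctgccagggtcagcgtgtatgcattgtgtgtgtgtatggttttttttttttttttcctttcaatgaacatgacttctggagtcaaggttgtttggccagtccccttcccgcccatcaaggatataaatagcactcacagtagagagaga
The E-box ends 54 bases before the annotated start of Cry1, 44 before that of Fgf21 and 189 before that of Nr0b2. A match is a string of letters and not evidence of binding.

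Cdkn1a (chromosome 17, 29090976 to 29100727, plus strand), which encodes the cell cycle inhibitor p21 and is induced by p53 and by glucocorticoids, was among the calls that held under all 17 alternatives. It was at 1, 2.66 and 1 TPM in WT_Ctrl and 15.7, 16.7 and 18.0 TPM in WT_DEN (log2 change 2.86 ± 0.25, adjusted p = 0.00629), and 2 untreated livers were at the floor of 1. It was the 1 call of 24 tested p53 targets, 13 of which had every DEN liver above every untreated one (22.9% of all genes tested), and the median was 0.27 (0.15 scaled). Bbc3, the cell death gene Puma, was at 2.95, 1.53 and 2.97 TPM in WT_Ctrl and 6.24, 7.24 and 5.56 TPM in WT_DEN and just missed (adjusted p = 0.0514). Mdm2, the p53-induced inhibitor of p53, was at 11.4, 10.9 and 9.10 TPM in WT_Ctrl and 13.0, 10.3 and 10.9 TPM in WT_DEN (adjusted p = 0.728) and Ccng1, another p53 target, at 11.0, 11.5 and 9.97 TPM in WT_Ctrl and 14.6, 10.8 and 12 TPM in WT_DEN (adjusted p = 0.557). The levels of Mdm2 and Ccng1 overlapped between groups, unlike those of Cdkn1a and Bbc3. Genes induced by glucocorticoids had 4 rises and 0 falls among 23 tested, Cdkn1a included, with a median of 0.41 (0.27 scaled). That median ranged from 0.25 without WT_DEN replicate 3 to 0.83 without WT_DEN replicate 2, both in fits where fewer than 23 members passed the filter. In the 3 left-out fits that kept all 23 members it ranged from 0.56 to 0.67. Tsc22d3, which encodes the anti-inflammatory protein GILZ, rose from 38.7, 48.7 and 50.8 to 89.1, 106 and 122 TPM (adjusted p = 0.019). Ddit4, an inhibitor of mTOR complex 1, rose from 2.36, 1.55 and 2.38 to 7.45, 5.73 and 6.43 TPM (adjusted p = 0.0187), and Zbtb16, a zinc-finger transcription factor, from 1.78, 1.71 and 1.04 to 4.69, 7.37 and 8.65 TPM (adjusted p = 0.019). Fkbp5, a steroid receptor chaperone, did not overlap either (3.89, 3.16 and 4.16 TPM without DEN and 7.39, 15.5 and 29.2 TPM after it) but did not pass (adjusted p = 0.071). The glucocorticoid-induced Tat, Tdo2 and Pck1 overlapped. The calls of Tsc22d3, Ddit4 and Zbtb16 ended without WT_DEN replicate 2 and without replicate 3, at up to 0.0692, and those of Tsc22d3 and Zbtb16 under median-of-ratios scaling (0.094 and 0.0554).

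Several regulators at low levels rose. Egr1, an immediate early transcription factor, was at 1, 1 and 2.55 TPM in WT_Ctrl and 9.54, 8.96 and 9.93 TPM in WT_DEN (log2 change 2.11 ± 0.23, adjusted p = 0.00979) and was the 1 call of 17 immediate early and heat shock genes (median 0.50, 0.33 scaled, 0.33 without WT_Ctrl replicate 2 and 0.14 without WT_Ctrl replicate 3). Without WT_Ctrl replicate 2 fewer than 17 members passed the filter. Epha2, a receptor tyrosine kinase, was at 2.76, 1.68 and 2.83 TPM in WT_Ctrl and 10.7, 8.42 and 12.7 TPM in WT_DEN (1.76 ± 0.21, adjusted p = 0.0108). The gene 1810011O10Rik, named Tcim in RefSeq (chromosome 8, 24437180 to 24438984, minus strand), was at 11.7, 11.6 and 6.20 TPM in WT_Ctrl and 50.0, 42.7 and 68.9 TPM in WT_DEN (2.36 ± 0.26, adjusted p = 0.00979). All 3 calls held under each left-out library. Rgs16, a regulator of G protein signalling, rose from 3.09, 1 and 5.38 to 18.8, 21.2 and 12.8 TPM (adjusted p = 0.0374), Dynlt1b, a dynein light chain, from 1, 5.66 and 4.95 to 32.9, 37.2 and 27.0 TPM (0.019), and Abhd1, a hydrolase, from 1.02, 1 and 7.51 to 18.3, 19.5 and 20.4 TPM (0.046). Gm6614, a predicted gene, rose from 1, 1 and 7.67 to 18.2, 32.9 and 38.0 TPM (log2 change 3.17 ± 0.55, adjusted p = 0.0386), a call that ended without WT_Ctrl replicate 2 or WT_DEN replicate 1, 2 or 3 (up to 0.0942) and under median-of-ratios scaling (0.0872). The calls of Rgs16, Dynlt1b and Abhd1 ended under median-of-ratios scaling, at 0.0734, 0.0635 and 0.0998. They also ended without WT_DEN replicate 2, those of Rgs16 and Abhd1 without WT_DEN replicate 1 or 3, and that of Abhd1 without WT_Ctrl replicate 1 or 2, at up to 0.11.

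Proliferation and tumour genes did not pass. None of 13 tested cell cycle genes was called, and 10 of 29 listed were at 1 in all 6 libraries. Rrm2, a subunit of ribonucleotide reductase, was at 1.30, 2.58 and 1.14 TPM in WT_Ctrl and 3.65, 4.04 and 4.23 TPM in WT_DEN (adjusted p = 0.071), and Pcna, the replication clamp, at 28.8, 23.4 and 24.2 TPM in WT_Ctrl and 31.3, 28.0 and 34.5 TPM in WT_DEN (adjusted p = 0.307). Rrm2 was higher in every DEN liver and Pcna was not. None of 13 tested liver tumour and fetal liver genes was called, and 7 of 22 listed were at 1 in all 6. Of the 13, 2 had every DEN liver above every untreated one (22.9% of all genes tested) and 2 had every DEN liver below (3.39%). Myc was lower in every DEN liver, at 8.59, 2.78 and 3.06 TPM in WT_Ctrl and 2.15, 2.03 and 2.02 TPM in WT_DEN (adjusted p = 0.225). Afp, alpha-fetoprotein, was at 2.48, 1.73 and 1.60 TPM in WT_Ctrl and 5.12, 1.28 and 8.64 TPM in WT_DEN (adjusted p = 0.346) and Ly6d, an antigen seen on precancerous hepatocytes, at 1.07, 1 and 1.05 TPM in WT_Ctrl and 8.65, 1.11 and 7.99 TPM in WT_DEN (adjusted p = 0.159). For both, WT_DEN replicates 1 and 3 were the highest of the 6 livers, while replicate 2 lay below the untreated livers for Afp and barely above them for Ly6d. None of 20 DNA repair genes was called, Mgmt, which removes alkyl groups from guanine, being at 25.5, 16.6 and 18.9 TPM in WT_Ctrl and 34.7, 27.9 and 29.4 TPM in WT_DEN (adjusted p = 0.133). The 8 genes of gankyrin (Psmd10) and its reported targets gave 0 calls in messenger RNA, and these libraries do not measure protein. The list's median was 0.16 (-0.01 scaled) against 0.14 for all genes. It ranged from 0.10 without WT_Ctrl replicate 2 to 0.25 without WT_Ctrl replicate 3. Psmd10 was at 8.95, 7.12 and 7.36 TPM in WT_Ctrl and 10.5, 7.09 and 6.70 TPM in WT_DEN (log2 change 0.03 ± 0.20, adjusted p = 0.948). Hnf4a, a transcription factor of hepatocyte identity, was higher in every DEN liver without passing (119, 121 and 107 TPM without DEN and 157, 144 and 177 TPM after it, adjusted p = 0.117).

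Bile acid genes had 2 rises and 0 falls among 24 tested, with a median of 0.23 (0.05 scaled, 0.14 without WT_Ctrl replicate 2 and 0.14 without WT_DEN replicate 1). Cyp8b1, the 12-alpha-hydroxylase that sets the share of cholic acid, was at 128, 116 and 109 TPM in WT_Ctrl and 239.9, 255 and 247 TPM in WT_DEN (log2 change 1.07 ± 0.12, adjusted p = 0.0108). Nr0b2, the repressor SHP, whose promoter is printed above, was at 23.3, 23.4 and 33.2 TPM in WT_Ctrl and 85.1, 68.8 and 59.7 TPM in WT_DEN (1.39 ± 0.19, adjusted p = 0.0187). Neither overlapped between groups, whereas Cyp7a1, the rate-limiting enzyme, overlapped (36.0, 10.3 and 14.2 TPM without DEN and 45.3, 13.2 and 23.7 TPM after it, adjusted p = 0.655). The Cyp8b1 call ended without WT_DEN replicate 2 or 3 (up to 0.0572). The Nr0b2 call ended without WT_DEN replicate 2 (0.0635) and under median-of-ratios scaling (0.0568). Single rises were also found in 3 further lists. Irf7, the interferon regulatory factor, rose from 8.56, 10.2 and 9.27 to 33.5, 29.8 and 19.9 TPM (adjusted p = 0.019) as the 1 call of 29 interferon response genes (median 0.39, 0.27 scaled). That median ranged from 0.13 to 0.54 with 1 library left out. The summed level of the list ranged from 435 to 593 TPM in WT_Ctrl and from 615 to 1011 in WT_DEN. Only 4 of the 29 had every DEN liver above every untreated one (22.9% of all genes tested). Herpud1, of endoplasmic reticulum protein degradation, rose from 129, 167 and 153 to 242, 273 and 283 TPM (0.0393) as the 1 call of 28 unfolded protein response genes (median 0.15). Nags, which makes the activator of the urea cycle, rose from 32.9, 28.9 and 28.7 to 54.2, 51.4 and 56.0 TPM (0.0268) as the 1 call of 32 urea cycle and amino acid genes (median 0.26). The medians of the last 2 lists were -0.02 and 0.08 after scaling. With 1 library left out, the first ranged from 0.01 (WT_Ctrl replicate 3) to 0.34 (WT_DEN replicate 3) and the second from 0.10 (WT_Ctrl replicate 2) to 0.41 (WT_Ctrl replicate 1). The 0.01 came from a fit where fewer than 28 members passed the filter. In the 3 left-out fits that kept all 28 the lowest median was 0.05. The Irf7 and Herpud1 calls were lost under median-of-ratios scaling (0.0511 and 0.154), and all 3 without WT_DEN replicate 2. Those of Herpud1 and Nags also ended without WT_Ctrl replicate 3 or WT_DEN replicate 1 or 3, and that of Nags without WT_Ctrl replicate 2, at up to 0.147.

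No gene passed among 25 cholesterol synthesis genes (median 0.42, 0.24 scaled), 29 acute phase genes (0.37, 0.19), 23 targets of the oxidative stress factor NRF2 (0.29, 0.11), 32 proteasome genes (0.14, -0.04), 16 pericentral (0.07, -0.07) and 14 periportal hepatocyte genes (0.16, -0.02), 11 iron and metallothionein genes (0.46, 0.31) or 4 structural RNAs. With 1 library left out the medians moved by over 1.5 times for cholesterol synthesis (0.17 without WT_Ctrl replicate 3, 0.27 without WT_DEN replicate 1) and NRF2 targets (0.16 without WT_DEN replicate 1, 0.19 and 0.19 without WT_Ctrl replicates 2 and 3). Those of the proteasome (0.04 without WT_DEN replicate 1), pericentral (0.00 without WT_Ctrl replicate 2) and periportal lists (0.04 without WT_Ctrl replicate 2, 0.37 without WT_Ctrl replicate 1) moved as much. The members with the smallest p were Taldo1 (0.39, adjusted p = 0.149) and Osgin1 (0.83, adjusted p = 0.186) among NRF2 targets, Psmd8 (0.35, adjusted p = 0.181) and Psmd7 (0.32, adjusted p = 0.275) in the proteasome, Lect2 (0.72, adjusted p = 0.0539) and Asl (1.04, adjusted p = 0.106) in the zonal lists and Id1 (1.68, adjusted p = 0.111) in the iron list, with the log2 change given first. A count of 0 does not show that levels were equal. Serpina3n, an acute phase protease inhibitor, was at 164, 125 and 157 TPM in WT_Ctrl and 223, 221 and 228 TPM in WT_DEN with no overlap (adjusted p = 0.0825).

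**Figure D4:**
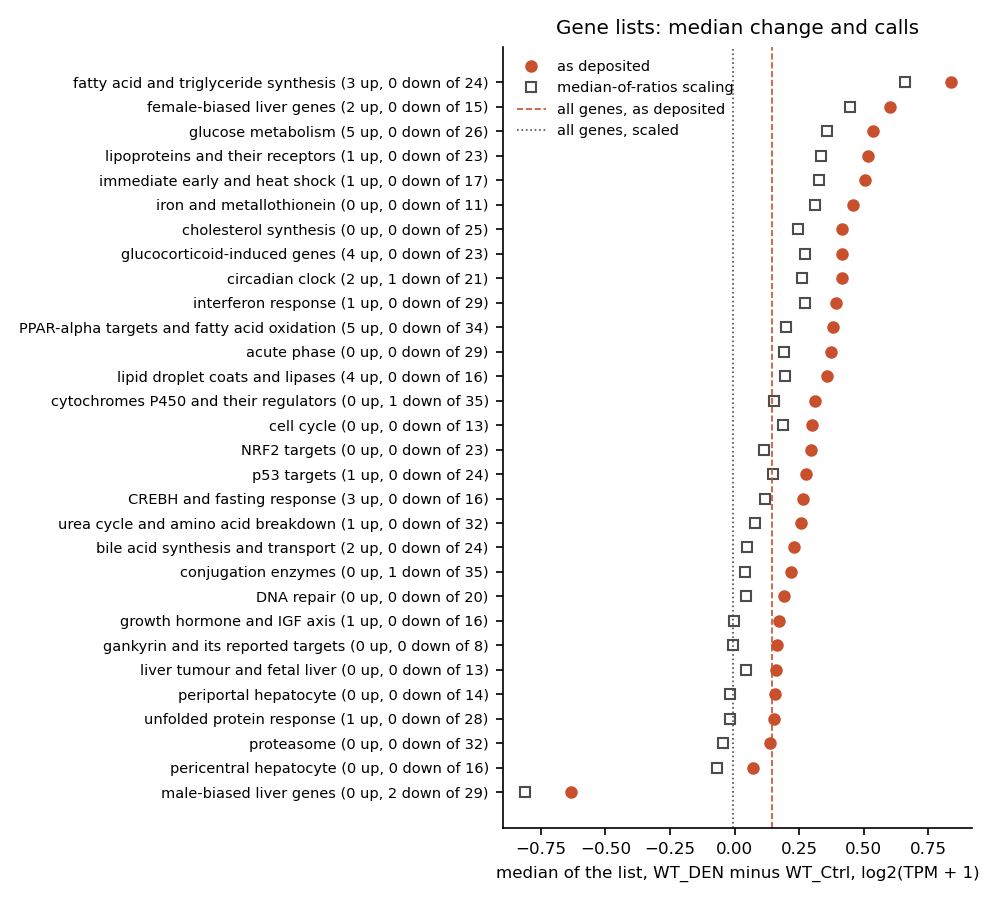
For 30 gene lists with at least 5 tested genes, the median change of the list (WT_DEN minus WT_Ctrl, log2(TPM + 1)) is plotted as deposited (filled) and after median-of-ratios scaling (open), with lines at the medians of all genes (0.14 and -0.01). Fatty acid and triglyceride synthesis lies highest at 0.84 and male-biased genes lowest at -0.63, and the label of each list gives its calls.

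The same contrast in the knock-in livers was set beside the wild-type calls. Of the 147 genes, 114 had a mean change of the same sign in S302A (70.4% of all 11464 genes did), 37 of them with no overlap between the groups (15.6% of all genes), and in 128 the change was smaller than in wild type. The genes were chosen for their change in wild type, which by itself favours a larger value there, and S302A_DEN replicate 3 stands apart from the other knock-in libraries. Without it 105 had the same sign. No share of all genes is given for that count or for the 128 smaller changes. Apoa4 changed by 3.89 in wild type and by 3.21 in S302A, Cdkn1a by 2.86 and 3.27, Hsd17b6 by -2.12 and -2.03, and Cyp3a11 by -2.30 and -2.73. The wild-type rises of Dgat2 (0.87), Khk (1.38), Nr0b2 (1.39) and Tsc22d3 (1.18) stood beside -0.28, -0.03, -0.13 and -0.02 in S302A, and the fall of Mug2 (-2.04) beside 0.27. Without S302A_DEN replicate 3 the S302A values of Khk and Mug2 turned to 0.14 and -0.68. With all libraries the differences between genotypes did not pass the test of the interaction (for Dgat2, Khk, Nr0b2, Tsc22d3 and Mug2, adjusted p = 0.273, 0.489, 0.759, 0.489 and 0.975). In a 12-library limma model 5 of 12120 genes passed it (0.0413%), and 75 did without S302A_DEN replicate 3. Of the 147 wild-type calls 2 were among the 5, and 17 among the 75. The 2 are transcripts with identical values in all libraries and count as 1 measurement. The interaction includes the same wild-type difference that chose the 147, which by itself favours such an overlap.

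**Figure D5:**
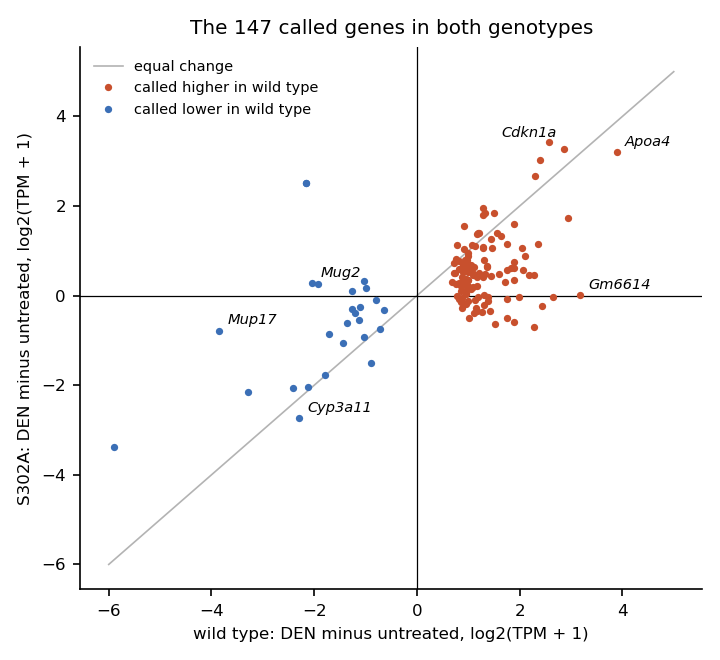
For the 147 genes called in wild type, the DEN change in S302A (vertical axis) is plotted against that in wild type (horizontal axis), both in log2(TPM + 1), with a line of equal change. Cdkn1a (3.27 in S302A) and Apoa4 (3.21) keep large rises in both genotypes and Cyp3a11 (-2.73) a large fall, while most other points lie nearer to 0 in S302A.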

How the data were processed

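Whole-liver RNA of 6 wild-type libraries (3 per group) was analysed, with 6 S302A libraries used for the genotype comparison. The authors deposited TPM per gene symbol, made with kallisto and mm10 per the submitters' processing notes. The kallisto version and the annotation are not given in the sources used here. No value is below 1, and the depth per library is unknown, so no counting interval was given. Genes above 1 TPM in at least 3 of the 6 libraries were tested as log2(TPM + 1) with limma 3.58.1 in R 4.3.3 (trended moderation, 4 residual degrees of freedom, Benjamini-Hochberg over all genes tested, threshold 0.05). The difference between genotypes was the interaction in a 12-library limma model. The fit was tested on simulated data. Alternatives were pseudocounts of 0.1 and 0.5, filters, 3 scalings, other sets of libraries, robust moderation, a replicate block and leaving out each library. Members and lists were chosen with earlier results of these data known. Named genes were the 15 largest called rises and falls of at least 5 TPM, the called genes of each list, up to 3 members with the smallest p in lists with few calls, and genes added after their values were seen. Transcripts listed without a symbol are counted and not named, and some members covered by this rule are given only by their list, and some results are not reported here. Coordinates are from GENCODE M21 (mm10), and promoters from RefSeq (GRCm38.p6). Mup, Cyp2a, Cyp3a, Acot and Ces1 genes have near-identical copies that the authors' counting could split.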

Additional observations from a re-analysis of the deposited data

Results flagged for a closer look

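The test of the interaction between genotype and DEN passed for 5 of 12120 genes. Differences are S302A minus wild type on the log2(TPM + 1) scale, adjusted by limma with Benjamini-Hochberg. A pair of transcripts without a gene symbol, whose values are identical in all libraries and which therefore count as 1 measurement, had a difference of 4.67 (adjusted p = 0.000347). They were at 12.8, 4.85 and 7.69 TPM in WT_Ctrl and 1 in all WT_DEN livers, and at 1 in all S302A_Ctrl livers and 9.95, 8.13 and 13.9 TPM in S302A_DEN. Cyp2b10, a xenobiotic P450, had a difference of -2.75 (adjusted p = 0.0259). It was at 4.70, 7.29 and 7.22 TPM in WT_Ctrl and 10.8, 15.1 and 12.1 TPM in WT_DEN, and at 5.88, 9.30 and 8.02 TPM in S302A_Ctrl and 1, 2.33 and 1 TPM in S302A_DEN. Gvin1, an interferon-inducible GTPase, had a difference of 2.14 (adjusted p = 0.00653). It was at 2.00, 2.17 and 1.77 TPM in WT_Ctrl and 1.91, 1.10 and 1.08 TPM in WT_DEN, and at 1.16, 1 and 1.27 TPM in S302A_Ctrl and 6.44, 5.93 and 6.83 TPM in S302A_DEN. The fifth was another transcript without a symbol, with a difference of -11.78 (adjusted p = 0.0155). It was at 1.90, 1 and 93.3 TPM in WT_Ctrl, 243.6, 557 and 336 TPM in WT_DEN, 308, 225 and 203 TPM in S302A_Ctrl and 5.93, 1 and 1 TPM in S302A_DEN. The cause of these differences was not tested.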

How the results depend on the processing

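The 147 calls in wild type became 46 with no filter, 103 with median-of-ratios scaling, 87 with quantile normalization, 79 without the 20 most abundant genes, 16 with all 12 libraries in 1 model and 277 in that model without S302A_DEN replicate 3. Leaving out 1 library gave 24 to 716 calls: the untreated replicates 1 and 3 gave 716 and 87 when left out, and the DEN replicates 2 and 3 gave 24 and 30. Of the calls, 82.3% were rises as deposited, 50.5% with median-of-ratios scaling, 46.0% with quantile normalization and 65.8% without the 20 most abundant genes. The median change of all genes was -0.0078 with median-of-ratios scaling and -0.0027 with quantile normalization, and 0.09 to 0.23 with 1 library left out. The 5 interaction calls became 12 and 10 under these scalings and 2 to 75 with 1 library left out: 75 without S302A_DEN replicate 3, 3 and 13 without the wild-type untreated replicates 1 and 3, and 2 without WT_DEN replicate 3 or S302A_Ctrl replicate 2. Over the alternatives, values of called named genes stayed past the threshold 606 times and missed it 373 times, and list medians moved by more than their spread 44 times and did not 483 times. Same-numbered libraries deviated together weakly (correlations 0.08, -0.01 and 0.12), WT_Ctrl replicates 1 and 3 correlating best with their own number and replicate 2 not. With the replicate block 56 genes passed in wild type and 5 in the interaction. The cause of these changes was not tested. Unknown depth and the floor at 1 limit all low values.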

Other observations

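Called genes outside the lists, chosen after their values were seen, included enzymes and regulators of several kinds. Akr1c19, an aldo-keto reductase, was at 36.9, 31.4 and 33.5 TPM in WT_Ctrl and 82.0, 88.2 and 84.7 TPM in WT_DEN (log2 change 1.30 ± 0.12, limma adjusted p = 0.00642), and this call held under each left-out library. Both Ppp1r3b and Ppp1r3c, regulatory subunits that direct protein phosphatase 1 to glycogen, rose. Ppp1r3b went from 30.6, 44.8 and 16.8 to 102, 98.2 and 114 TPM (adjusted p = 0.0315) and Ppp1r3c from 23.7, 18.1 and 20.2 to 52.1, 62.8 and 42.2 TPM (0.019), with no overlap between groups. The Ppp1r3b call ended without each WT_DEN replicate (up to 0.081) and under median-of-ratios scaling (0.0703), and the Ppp1r3c call without WT_DEN replicate 2 (0.0635).

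The carboxylesterase genes Ces1d and Ces1g rose, and reads may be split among Ces1 copies. Ces1d was at 244, 169 and 205 TPM in WT_Ctrl and 446, 877 and 839.5 TPM in WT_DEN (log2 change 1.76 ± 0.27, adjusted p = 0.0265) and Ces1g at 20.9, 24.9 and 46.0 TPM in WT_Ctrl and 156, 91.3 and 93.6 TPM in WT_DEN (1.89 ± 0.31, 0.0315). Lipa, the lysosomal acid lipase, was at 76.4, 55.1 and 52.7 TPM in WT_Ctrl and 120.0, 117 and 106 TPM in WT_DEN (0.0436), and Mpc1, a subunit of the mitochondrial pyruvate carrier, at 254, 177 and 239 TPM in WT_Ctrl and 522, 409 and 406 TPM in WT_DEN (0.0432). The Ces1d and Ces1g calls were lost under median-of-ratios scaling (0.0721 and 0.0741). The Ces1d call also ended without WT_Ctrl replicate 3 or WT_DEN replicate 2 or 3, the Ces1g call without WT_Ctrl replicate 2 or WT_DEN replicate 1, 2 or 3, and those of Lipa and Mpc1 without WT_Ctrl replicate 2 or 3 or any WT_DEN replicate, at up to 0.131. Hes1, a Notch-induced repressor, rose from 5.64, 3.59 and 4.45 to 13.4, 15.9 and 13.3 TPM (0.0126), a call that ended without WT_DEN replicate 2 (0.0552).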
